A study of Mus musculus with 8 samples.

Results

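Phase II conjugation enzymes attach a large polar group to a drug, hormone, bile pigment or lipid product, which makes it easier to excrete in urine or bile. The genes described here are the 60 protein-coding genes of the table whose symbols begin with Ugt, Sult or Gst followed by a class letter (a, k, m, o, p, t or z) and a digit. By symbol they are 21 glucuronosyltransferase genes, 21 glutathione transferase genes and 18 sulfotransferase genes, of 35275 rows and 22026 protein-coding rows in all. The rule used names alone and no measured value.

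RNA was sequenced from renal cortex of 8 mice at postnatal day 7, with 1 library per mouse. The 4 control mice (Con1391, Con1452, Con1822 and Con1823) were of the line labelled Cre-. The 4 mutants (Mut1393, Mut1453, Mut1454 and Mut1819) were of the line labelled Six2-Tfam knockout, in which Tfam, the packaging and transcription factor of mitochondrial DNA, is lost. Six2 is active in nephron progenitors, so a Cre driven by it acts in the nephron epithelium, while collecting duct, vessels, stroma and immune cells have other origins. No library had Cre with an intact Tfam, so an effect of Cre and of Tfam loss cannot be told apart, and the labels give no strain and no allele beyond these names.

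UDP-glucuronosyltransferases (UGTs) sit in the endoplasmic reticulum and transfer glucuronic acid from UDP-glucuronate. Ugt3a1, Ugt3a2 and Ugt8a are counted among the UGTs by symbol alone. The human UGT3A enzymes use other sugar donors, and Ugt8a makes galactosylceramide. Cytosolic glutathione transferases (GSTs) join glutathione to electrophiles, and cytosolic sulfotransferases (SULTs) take sulfate from the donor PAPS. In the kidney the proximal tubule is the segment best known for glucuronidation and for breaking glutathione conjugates down to mercapturates.

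Counted reads per library ranged from 15597762 to 20417550. Tfam itself, with counts scaled to the library total as counts-per-million (CPM), measured 49.1 to 53.7 CPM in the controls and 26.9 to 29.0 in the mutants. Counts of Y-linked genes were 0 to 3 in the controls, 4294 to 4915 in mutants Mut1393, Mut1453 and Mut1454, and 27 in Mut1819. Xist counts were 10275 to 15593 in the controls and 13831 in Mut1819, against 13 to 141 in Mut1393, Mut1453 and Mut1454. In both respects Mut1819 stood with the controls and apart from the other mutants. All 20 markers of proximal tubule tested were lower in the mutants, and their summed CPM ranged from 9484 to 14343 among control libraries and from 1325 to 2628 among mutant libraries. All 7 macrophage markers were higher, with a sum of 120 to 143 in the controls and 210 to 257 in the mutants, whereas 7 of 8 loop of Henle markers and 7 of 7 distal convoluted tubule markers were lower. Lower calls numbered 7 of 9 for collecting duct with 1 higher, 4 of 5 for podocyte, 7 of 7 for endothelial, 2 of 7 for stroma and 1 of 6 for erythroid markers. With a term for Y-linked counts in the fit, lower calls were 19 of 20 for proximal tubule and 2 of 7 for endothelial markers. They were 1 of 7 for stroma and 2 of 6 for erythroid markers, and no collecting duct marker was higher. Over all genes tested 22.7% were lower and 23.5% higher, or 13.8% and 12.6% with that term. Of the hepatocyte markers 5 of 5 tested were lower, or 4 of 5 with that term. Their sum was 128 to 231 CPM among controls and 43.2 to 84.1 among mutants. The defining marker Alb had 20 and 10 counts over all libraries of a group. The defining adrenal genes Cyp11b1 and Cyp11b2 were at 0 counts in every library. In tissue RNA, fewer cells of a type and less RNA per cell cannot be told apart, and the part of these markers in the results below was not tested.

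Of the 60 genes, 9 had 0 counts in every library and 12 more had 1 to 39 counts over the 8 libraries together. Those at 0 were Ugt2a1, Sult1c1, Sult3a1 and 6 of the 7 Sult2a genes, hydroxysteroid sulfotransferases best known from liver. The gene labelled Ugt2a1 is named Ugt2a2 in GENCODE M21. Of the 100-base windows in its transcripts 93.5% occur in other genes, so its 0 may depend on how shared reads were counted. A count of 0 allows up to 3 counts in a library of this depth, so it does not show that a gene is silent. The filter on low counts left 38 genes for the test, 11 UGTs, 19 GSTs and 8 SULTs, and the others are given below by their counts.

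The summed reads of the 3 classes differed in how the groups compared. UGT genes together took 291 ± 39.9 CPM (SD, n = 4) in controls and 135 ± 15.9 in mutants, a ratio of 0.464. SULT genes took 303 ± 24.7 and 135 ± 38.9 in turn, a ratio of 0.444. GST genes took 843 ± 52.3 and 872 ± 99.7, a ratio of 1.03. The ranges of the groups did not overlap for UGTs and SULTs and overlapped for GSTs. Mitochondrial mRNAs held 5.95 ± 2.37% of the counts in the controls and 1.36 ± 0.325% in the mutants, and with these left out of the total the ratios were 0.441, 0.423 and 0.985.

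**Figure D1:**
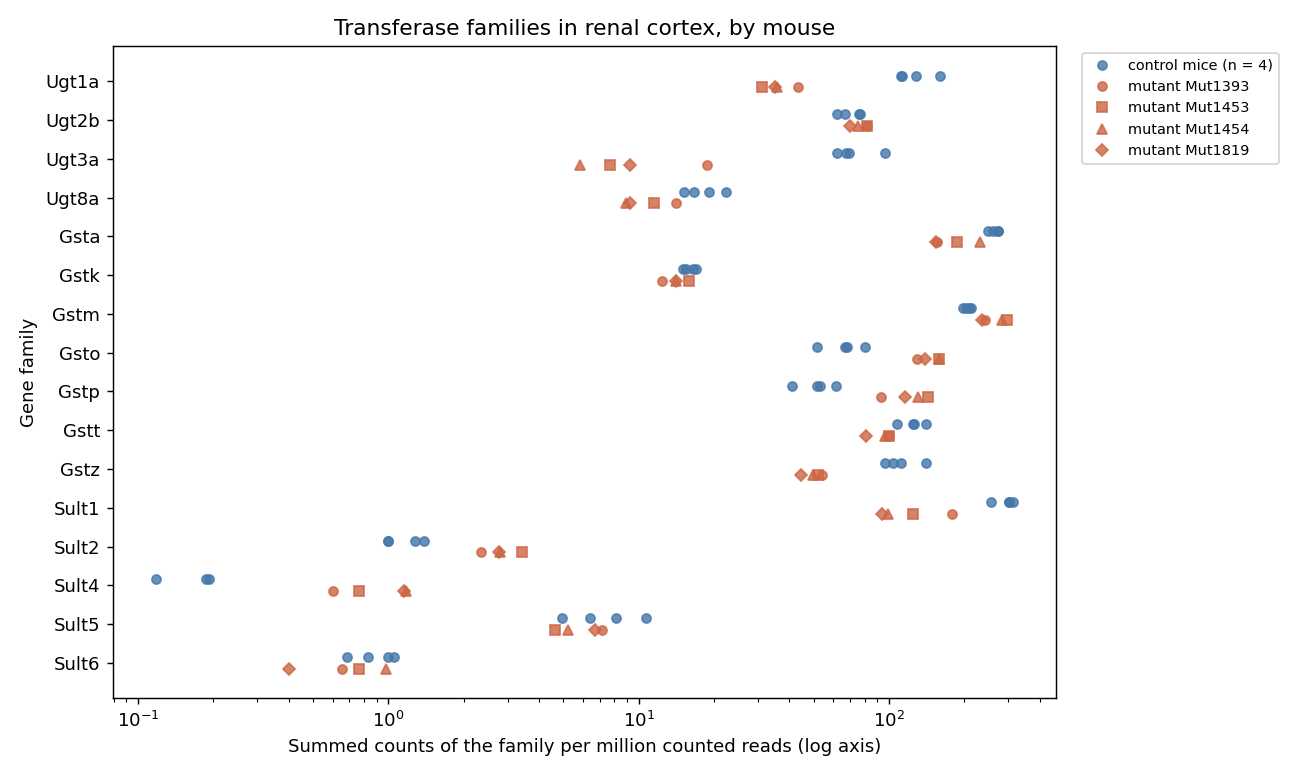
Summed reads of each transferase family, in CPM on a log axis, for every mouse, with controls as circles in blue and each mutant mouse as its own symbol in orange. Ugt3a and Ugt1a lie lower in all 4 mutants, Gsto and Gstp lie higher, and Ugt2b overlaps between the groups. Con1452 had 0 Sult4 counts and has no point there.

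Within GSTs the similar totals held families that differed in direction. Gsta genes took 264 ± 11.5 CPM in controls and 182 ± 35.9 in mutants, while Gstm genes took 206 ± 6.54 and 264 ± 30.1. Gstp took 51.8 ± 8.29 in controls and 121 ± 21.7 in mutants, and Gsto 66.8 ± 11.8 and 147 ± 14.5, in each case without overlap of the groups. In the other direction Gstz took 113 ± 19.5 and 50.3 ± 4.12, and Gstt 125 ± 13.3 and 94.3 ± 8.91. Among UGTs, Ugt1a took 128 ± 22.3 and 36.4 ± 5.08 and Ugt3a 73.9 ± 15.7 and 10.4 ± 5.75, whereas Ugt2b measured 70.3 ± 7.19 and 77.1 ± 5.73. These family sums are descriptions without a test.

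Gene by gene, edgeR's quasi-likelihood test with Benjamini-Hochberg adjustment over 15028 genes called 9 of the 38 tested genes higher and 17 lower in the mutants at an adjusted p under 0.05, and 12 did not pass. Over all genes tested 46.2% were called, 23.5% higher and 22.7% lower, and the median log2 fold change was -0.000783, against -0.40 over the 38 genes. Of the 38 genes 25 were called with every mutant beyond every control, against 40.1% of all genes tested. Among called genes alone these were 25 of 26, Gstm2 being the exception, against 86.7% of the 6948 called over the whole table. By class, 1 UGT rose and 8 fell, 6 GSTs rose and 6 fell, and 2 SULTs rose and 3 fell. A change beyond 1 log2 unit without overlap was seen upward in 7 members, against 3.54% of all genes, and downward in 10, against 5.69%. Of the former, Sult4a1, Gsta1 and Ugt1a9 reached the low-count filter in 4 mutants but in 0, 2 and 2 controls. Of the latter, Ugt3a1 and Ugt2b38 reached it in 4 controls but in 1 and 2 mutants. These genes entered the test through the group in which they were high.

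Because Y-linked counts differ between the groups, the fit was repeated with a term for them, which in effect sets Mut1819 against the controls. It called 8 members higher and 13 lower, with 12.6% and 13.8% of all genes called in those directions. The calls lost were Gsta3, Gstm2, Gsto2, Ugt1a7c and Ugt2b37. Without that term Gsto2 was called, and it lost its call in 11 of the 16 other settings in which it was tested.

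**Figure D2:**
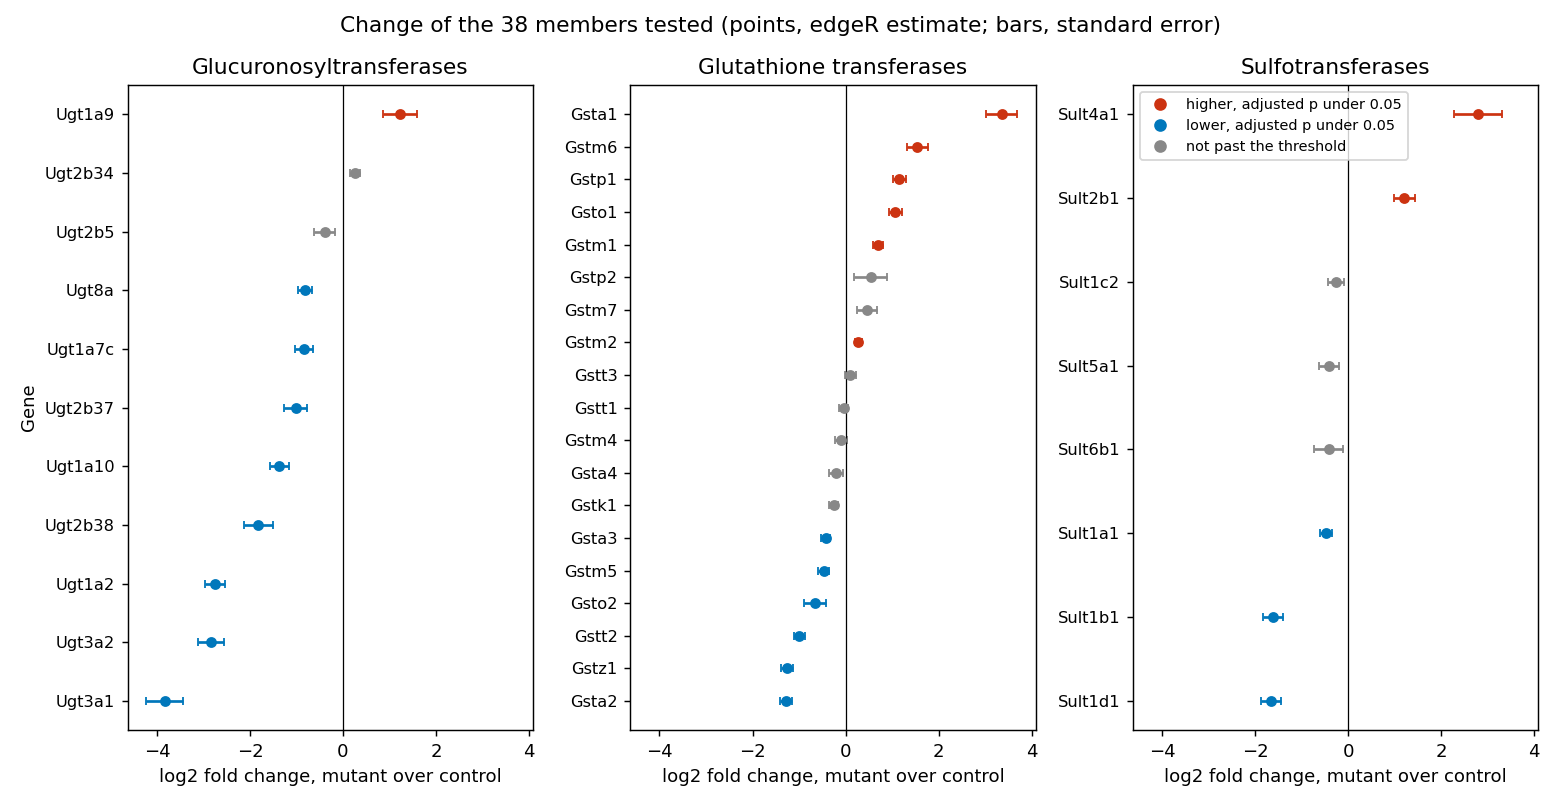
Log2 fold change, mutant over control, with its standard error for the 38 genes tested, in 3 panels by class. Red points were higher and blue points lower at an adjusted p under 0.05, and grey points did not pass. UGTs lie mostly left of 0, from -3.83 for Ugt3a1 to 1.23 for Ugt1a9, and GSTs spread on both sides, from -1.29 for Gsta2 to 3.36 for Gsta1.

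The Ugt1a genes form a single locus in which alternative first exons are spliced to the same last exons, so each gene has a promoter of its own. In the mouse genome (build mm10) the 9 genes span chr1:88055388-88220002, in the order Ugt1a10, Ugt1a9, Ugt1a8, Ugt1a7c, Ugt1a6b, Ugt1a6a, Ugt1a5, Ugt1a2 and Ugt1a1 along the plus strand. The sequences below are the 250 bases before the RefSeq start (GRCm38.p6) of the neighbours Ugt1a10 and Ugt1a9, which moved in opposite directions, and of Sult1d1, the most abundant SULT, which fell. Capitals mark the longest run of bases that Ugt1a10 and Ugt1a9 share, and in Sult1d1 they mark GCGTG, read on the opposite strand, the core that the aryl hydrocarbon receptor binds. The Ugt1a10 sequence lies at chr1:88055161-88055410 on the plus strand, Ugt1a9 at chr1:88070529-88070778 on the plus strand, and Sult1d1 at chr5:87569007-87569256 on the minus strand.
Ugt1a10: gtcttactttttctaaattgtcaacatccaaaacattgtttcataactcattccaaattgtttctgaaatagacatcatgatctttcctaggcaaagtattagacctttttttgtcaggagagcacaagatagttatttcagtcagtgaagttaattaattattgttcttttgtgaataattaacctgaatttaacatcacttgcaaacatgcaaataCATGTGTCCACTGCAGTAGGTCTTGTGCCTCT
Ugt1a9: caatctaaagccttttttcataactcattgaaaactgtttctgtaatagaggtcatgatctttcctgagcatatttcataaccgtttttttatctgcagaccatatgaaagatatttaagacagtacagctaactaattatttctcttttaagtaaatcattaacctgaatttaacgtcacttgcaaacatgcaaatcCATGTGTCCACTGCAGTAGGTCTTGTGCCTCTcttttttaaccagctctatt
Sult1d1: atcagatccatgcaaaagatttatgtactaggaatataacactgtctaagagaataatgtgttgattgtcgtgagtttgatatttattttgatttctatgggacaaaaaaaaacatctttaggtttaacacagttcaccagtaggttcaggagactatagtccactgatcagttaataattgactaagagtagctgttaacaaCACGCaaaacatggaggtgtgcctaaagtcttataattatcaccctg
Aligned end to end, the Ugt1a10 and Ugt1a9 sequences are identical in 68.9% of columns, whereas the median over the 253 pairs of 23 called members with a promoter is 45.0%. The shared run is 32 bases long and begins 32 bases before the start in Ugt1a10 and 52 bases before it in Ugt1a9.

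Ugt1a2, the UGT with the highest level per length in the controls, measured 75.2, 115, 73.9 and 88.1 CPM in the controls, listed throughout as Con1391, Con1452, Con1822 and Con1823. It measured 19.4, 8.97, 13.0 and 10.4 CPM in the mutants, listed as Mut1393, Mut1453, Mut1454 and Mut1819. Every mutant lay far under every control, Mut1393 being the highest mutant and Con1452 the highest control. The log2 fold change was -2.76 (SE 0.21, adjusted p = 8.99e-07), a level 6.76-fold lower.

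Ugt1a10 measured 17.3, 26.2, 18.2 and 22.1 CPM in controls and 7.36, 11.9, 5.85 and 7.62 in mutants. The groups did not overlap, and Mut1453 came nearest to the controls. Its change was -1.37 on the log2 scale (SE 0.20, adjusted p = 0.000141). Ugt1a7c fell by 0.83 on the log2 scale (adjusted p = 0.00359), from 21.9 ± 5.39 to 12.3 ± 2.89 CPM, and did not pass with the term for Y-linked counts (log2 fold change -0.79, adjusted p = 0.102).

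Ugt1a9, whose human counterpart is an abundant renal UGT that glucuronidates phenols such as propofol, was the UGT that rose. It measured 0.505, 0.720, 0.318 and 0.665 CPM in controls and 0.975, 0.868, 1.32 and 2.08 in mutants. The groups did not overlap but came close, with Mut1819 the highest. Mutant over control, the log2 fold change was 1.23 (SE 0.36, adjusted p = 0.0150), on 36 counts in all in controls and 100 in mutants, and with the term for Y-linked counts it was 1.90 (adjusted p = 0.00602). Of the controls 2 reached the level of the low-count filter, against all 4 mutants.

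The other Ugt1a genes were too low to test. Ugt1a1, the bilirubin UGT, had 11 counts in controls and 27 in mutants, and Ugt1a6a, a phenol UGT, had 29 and 25. Ugt1a6b had 22 and 8 counts, a ratio of 0.308 after scaling to the TMM-scaled library totals. Its exact 95% interval of 0.118 to 0.718 covers counting error alone. Ugt1a8 and Ugt1a5 had 2 and 1 counts in controls and 0 in mutants. From 50.4 to 70.9% of the 100-base windows in the transcripts of these genes also occur in other Ugt1a genes, and how the reads of shared exons were assigned is not given in the sources used here.

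Ugt3a1 and Ugt3a2 lie side by side at chr15:9276888-9370955, and in humans the enzymes use sugar donors other than UDP-glucuronate. Ugt3a1 measured 5.55, 11.2, 6.35 and 6.10 CPM in controls and 1.12, 0.289, 0.244 and 0.329 in mutants. Con1452 stood above the other controls and Mut1393 above the other mutants, and the groups were far apart. The log2 fold change of -3.83 (SE 0.40, adjusted p = 1.03e-05) was the largest fall among the 38 genes, on 475 counts in controls and 39 in mutants. It was -4.64 without Mut1393 and -4.44 with the term for Y-linked counts. It passed the filter in 4 controls and 1 mutant.

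Ugt3a2 measured 62.8, 93.3, 54.9 and 65.2 CPM in controls and 17.1, 7.23, 5.55 and 8.50 in mutants. Mut1393 was again the highest mutant and still under every control. On the log2 scale this was -2.84 (SE 0.28, adjusted p = 6.50e-06), a level 7.15-fold lower. No 100-base window of either Ugt3a transcript occurs in another gene.

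Ugt2b and Ugt2a genes share chr5:86889767-87591594 with Sult1b1, Sult1d1 and Sult1e1, and UGT2B enzymes act on steroids and bile acids. Of the 12 genes in this stretch 4 fell, 2 did not pass and 6 were not tested. Ugt2b38 measured 2.84, 2.34, 1.97 and 1.69 CPM in controls and 0.731, 0.463, 0.926 and 0.329 in mutants, with no overlap. Its log2 fold change was -1.82 (SE 0.31, adjusted p = 0.000474), and with the term for Y-linked counts it was -2.72 (adjusted p = 0.00431). It reached the filter in 4 controls and 2 mutants.

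Ugt2b37 measured 10.4, 8.52, 13.3 and 11.7 CPM in controls and 8.29, 2.95, 5.41 and 4.88 in mutants. Mut1393 lay just under Con1452, the lowest control, so the groups barely separated. The log2 fold change was -1.02 (SE 0.25, adjusted p = 0.00521), and with the term for Y-linked counts it was -1.17 without passing (adjusted p = 0.0721). Its promoter and that of Ugt2b38 are identical in 84.8% of aligned columns, the highest value of the 253 pairs.

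Ugt2b34 carried most Ugt2b reads and did not pass, at 56.0 ± 9.42 CPM in controls and 66.8 ± 6.74 in mutants (log2 fold change 0.25, SE 0.11, adjusted p = 0.0782). It passed without Con1452 (0.37, adjusted p = 0.00670), without Mut1819 (0.31, adjusted p = 0.0457) and without a filter (0.27, adjusted p = 0.0497). With the term for Y-linked counts it was 0.07 without passing (adjusted p = 0.804). Ugt2b5 measured 3.08 ± 0.464 and 2.33 ± 0.649 CPM (log2 fold change -0.39, adjusted p = 0.178). Ugt2b38 and Ugt2b5 share 24.2 and 24.7% of their 100-base windows with other members, so their reads may be divided unevenly. Ugt2b1, Ugt2b35, Ugt2b36 and Ugt2a3 had at most 7 counts over the 8 libraries.

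Ugt8a, which makes galactosylceramide, the precursor of renal sulfatide, fell in the mutants. It measured 22.7, 18.0, 19.0 and 15.6 CPM in controls and 13.8, 11.3, 8.87 and 8.77 in mutants. The groups did not overlap, and Mut1393 was the highest mutant. Its change was -0.81 on the log2 scale (SE 0.16, adjusted p = 0.00117).

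The order of UGT levels changed with these shifts. By the authors' FPKM, CPM divided by gene length in kilobases, the controls ranked Ugt1a2 (38.5 ± 6.85), Ugt3a2 (33.0 ± 6.70) and Ugt1a10 (17.0 ± 2.72) first, and the ranges of the first 2 overlapped. In the mutants Ugt2b34 led at 18.6 ± 1.70 FPKM, above Ugt1a10 at 7.00 ± 2.20, and Ugt1a2 was the fourth at 6.0 ± 2.14. Ugt1a genes share 50.4 to 70.9% of their 100-base windows with each other, against 0.278% shared with another gene for Ugt2b34. How reads of shared exons were counted is not given, so Ugt1a levels may be too low beside that of Ugt2b34. With the longest transcript as the length, an alternative chosen after seeing the data, Ugt2b34 (12.6) came before Ugt1a10 (9.05) in the controls. By the authors' FPKM Ugt2b34 held 10.8% of the summed UGT FPKM in the controls and 35.8% in the mutants.

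Among GSTs the alpha family gave the largest rise of a member and also the fall of the most abundant GST of the controls. Gsta4, Gsta1 and Gsta2 lie together at chr9:78182774-78355788. Alpha GSTs conjugate electrophiles and reduce lipid peroxides, and Gsta4 acts on the lipid aldehyde 4-hydroxynonenal. The 250 bases before the RefSeq start (GRCm38.p6) of the neighbours Gsta1, at chr9:78230419-78230668 on the plus strand, and Gsta2, at chr9:78347146-78347395 on the minus strand, are shown because their RNAs moved in opposite directions. Capitals mark GCGTG.
Gsta1: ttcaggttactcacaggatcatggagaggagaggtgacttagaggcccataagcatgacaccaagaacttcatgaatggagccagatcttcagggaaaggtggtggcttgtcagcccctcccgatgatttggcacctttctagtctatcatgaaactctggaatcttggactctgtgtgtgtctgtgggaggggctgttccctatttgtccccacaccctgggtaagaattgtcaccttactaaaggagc
Gsta2: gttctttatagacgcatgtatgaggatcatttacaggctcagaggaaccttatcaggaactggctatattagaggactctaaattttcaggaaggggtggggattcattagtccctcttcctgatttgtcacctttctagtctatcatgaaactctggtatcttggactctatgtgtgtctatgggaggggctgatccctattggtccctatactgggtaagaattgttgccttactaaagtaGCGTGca
The 2 sequences are identical in 70.5% of aligned columns, second among the 253 pairs. In Gsta1 the same core begins 2 bases before the start and runs past the end of the sequence shown.

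Gsta1 measured 0.442, 0.720, 0.762 and 0.302 CPM in controls and 4.14, 5.84, 8.67 and 4.39 in mutants. Every mutant was several times above every control, with Mut1454 the highest. Mutant over control, the log2 fold change was 3.36 (SE 0.33, adjusted p = 6.62e-06), a level 10.3-fold higher, on 36 counts in controls and 444 in mutants. It passed the filter in 2 controls and 4 mutants.

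Gsta2 measured 139, 145, 114 and 124 CPM in controls and 51.7, 46.0, 70.0 and 46.1 in mutants. The groups were well apart, and Mut1454, the mutant with the most Gsta1 RNA, also had the most Gsta2 RNA of the mutants. On the log2 scale this was -1.29 (SE 0.13, adjusted p = 6.36e-06), a level 2.44-fold lower. Of the 100-base windows of Gsta1, 80.6% occur in another gene, and of those of Gsta2 28.4%, so reads of the alpha genes may be divided unevenly. Gm3776 holds 64.7% of the windows of Gsta1, and no counts are given under its gene identifier. Whether reads of Gm3776 were counted as Gsta1 is not known. A rise of Gsta1 RNA and of Gm3776 RNA therefore cannot be told apart over those windows. Gm10639, which holds 12.6% of the windows of Gsta1 and 16.9% of those of Gsta2, fell by 2.33 on the log2 scale (adjusted p = 1.21e-07), from 3546 counts to 840.

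Gsta4 did not pass, at 106, 115, 105 and 118 CPM in controls and 76.9, 109, 128 and 72.6 in mutants. Mut1393 and Mut1819 lay under the controls, while Mut1454 lay above them. The log2 fold change was -0.20 (SE 0.15, adjusted p = 0.309). It passed with mouse number range added to the fit (-0.33, adjusted p = 0.0290) and without Mut1454 (-0.36, adjusted p = 0.0381). With the term for Y-linked counts it was -0.61 without passing (adjusted p = 0.0527). For Mut1819 alone against the controls, a fit with 1 mutant library, it was -0.61. Gsta3 fell by 0.43 on the log2 scale (SE 0.09, adjusted p = 0.00274), from 29.4 ± 3.32 to 21.9 ± 1.88 CPM.

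The mu family lies at chr3:107895821-108044894, where 3 of 7 genes rose, 1 fell, 2 did not pass and Gstm3 was not tested. Gstm6 measured 1.45, 2.70, 2.03 and 1.75 CPM in controls and 4.73, 7.64, 5.94 and 4.94 in mutants. The groups did not overlap, and Mut1453 was the highest. Its change was 1.54 on the log2 scale (SE 0.22, adjusted p = 0.000137), a level 2.91-fold higher.

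Gstm1, the mu GST with the most counts, rose by 0.70 on the log2 scale (SE 0.11, adjusted p = 0.000179), from 69.9 ± 4.01 to 114 ± 19.7 CPM. Gstm2 rose by 0.27 (SE 0.08, adjusted p = 0.0126), from 63.6 ± 2.07 to 76.8 ± 8.75 CPM, but Mut1393 at 65.5 CPM lay under Con1822 at 66.7. Gstm5, a mu GST best known from brain and testis, fell by 0.47 (SE 0.12, adjusted p = 0.00594). Gstm7 (log2 fold change 0.46, adjusted p = 0.0868) and Gstm4 (-0.10, adjusted p = 0.532) did not pass, and Gstm3 had 5 counts in controls and 20 in mutants. Without Con1452 Gstm7 passed (0.65, adjusted p = 0.0209). With the term for Y-linked counts it was 0.19 without passing (adjusted p = 0.712).

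Gstp1, the pi GST that conjugates electrophiles and binds the kinase JNK, lies beside Gstp2 at chr19:4035407-4046023. It measured 41.0, 56.3, 59.8 and 52.7 CPM in controls and 89.4, 139, 129 and 109 in mutants. All mutants lay above all controls, with Mut1393 the lowest mutant. Mutant over control, the log2 fold change was 1.15 (SE 0.14, adjusted p = 3.24e-05), a level 2.22-fold higher. Gstp2 was at 0.742 ± 0.286 and 1.09 ± 0.438 CPM and did not pass (log2 fold change 0.54, SE 0.36, adjusted p = 0.246), and 25.1% of the windows of Gstp1 occur in other genes.

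Gsto1, an omega GST that reduces dehydroascorbate and removes glutathione from proteins, measured 66.4, 85.4, 49.9 and 68.5 CPM in controls and 125, 155, 157 and 132 in mutants. Mut1393 was the lowest mutant and still well above Con1452, the highest control. On the log2 scale this was 1.07 (SE 0.13, adjusted p = 4.22e-05), a level 2.10-fold higher. Its neighbour Gsto2, at chr19:47865534-47886324, fell by 0.65 (SE 0.24, adjusted p = 0.0440), from 1.42 ± 0.256 to 0.902 ± 0.158 CPM, on 92 and 69 counts.

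Gstz1, which isomerises maleylacetoacetate in tyrosine breakdown, fell in all mutants. It measured 114, 152, 103 and 98.7 CPM in controls and 52.7, 51.3, 49.7 and 42.5 in mutants. The mutants lay close together under all controls. The log2 fold change was -1.25 (SE 0.12, adjusted p = 6.57e-06), a level 2.38-fold lower.

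Of the theta GSTs at chr10:75774115-75837424, Gstt2 fell by 0.99 on the log2 scale (SE 0.12, adjusted p = 2.99e-05), from 75.6 ± 13.6 to 38.1 ± 3.87 CPM without overlap. Gstt1, at 30.4 ± 3.59 and 29.5 ± 2.89 CPM (log2 fold change -0.04, SE 0.10), and Gstt3, at 22.7 ± 1.89 and 24.4 ± 4.09 (0.10, SE 0.12), did not pass, and Gstt4 had 2 counts in all. Gstk1, the kappa GST of mitochondria and peroxisomes, measured 16.5 ± 1.21 and 13.8 ± 1.44 CPM and did not pass (log2 fold change -0.26, SE 0.10, adjusted p = 0.0538). Gstk1 lay near the threshold and passed in 5 other settings, among them that with mouse number range in the fit (-0.31, adjusted p = 0.0182) and the fit without Mut1453 (-0.32, adjusted p = 0.0314). With the term for Y-linked counts it was -0.29 without passing (adjusted p = 0.239).

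In the order of GST levels, the controls were led by Gsta2 (186 ± 15.5 FPKM), Gsta4 (113 ± 5.0) and Gsto1 (78.7 ± 14.2), and the first 2 did not overlap their neighbours. In the mutants the order was Gsto1 (175 ± 17.3), Gstp1 (158 ± 28.3), Gstm1 (124 ± 19.9) and Gsta4 (103 ± 26.6), with Gsta2 the sixth at 80.2 ± 15.8 FPKM. With the longest transcript as the length, Gstp1 (62.2) and Gstm2 (58.2) came before Gsto1 (55.3) in the controls. By the authors' FPKM Gsta2 held 20.7% of the summed GST FPKM in the controls and 8.24% in the mutants.

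**Figure D3:**
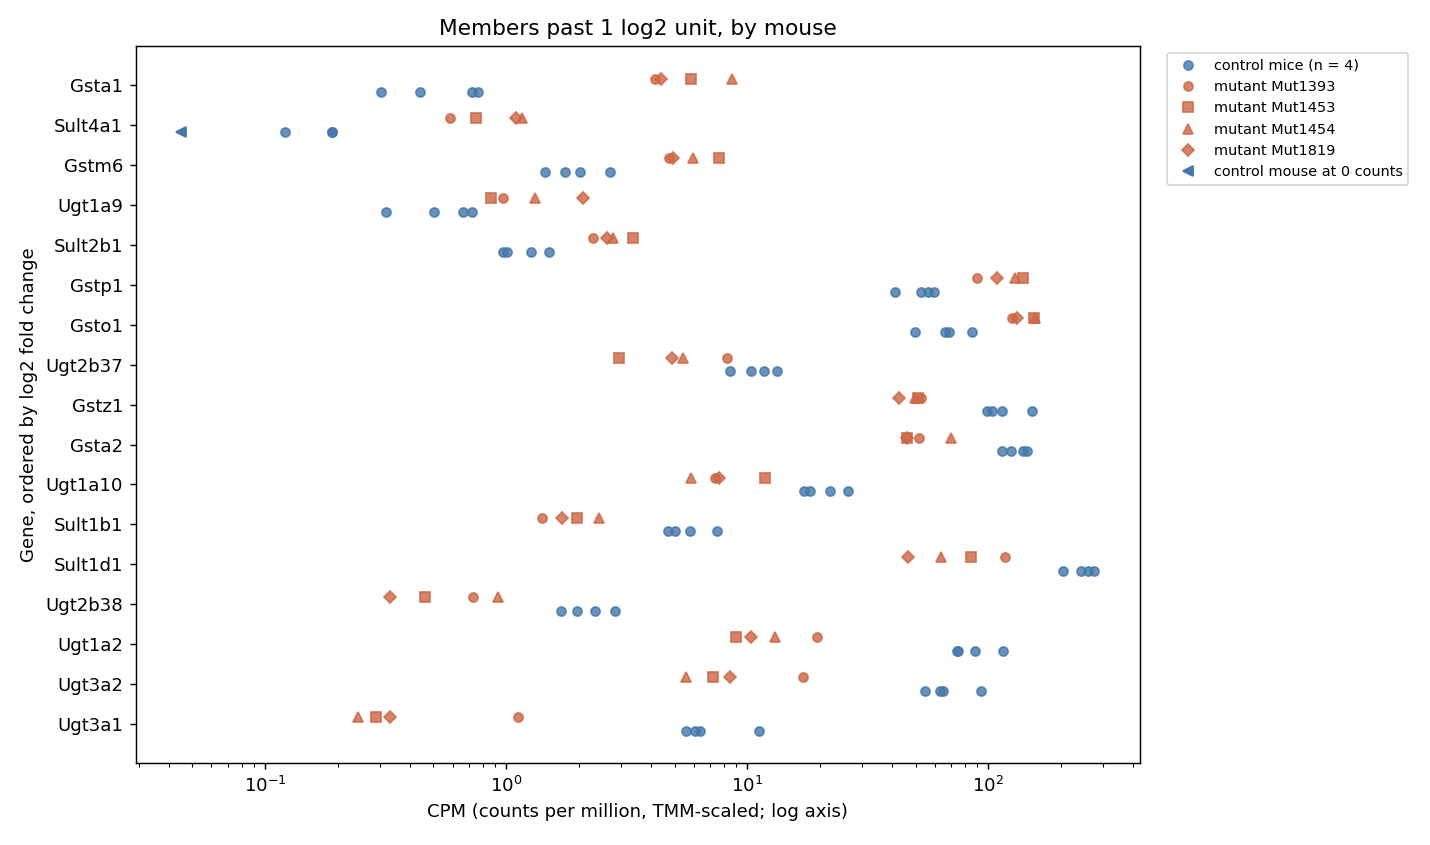
CPM of every mouse, on a log axis, for the 17 genes changed by more than 1 log2 unit without overlap of the groups, ordered by log2 fold change from Ugt3a1 at the bottom to Gsta1 at the top. Controls are blue circles, each mutant mouse has its own orange symbol, and the triangle at the left edge stands for Con1452, which had 0 counts of Sult4a1.

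Sulfotransferase reads came mostly from Sult1d1, a catecholamine sulfotransferase of the mouse, which held 78.1% of the summed SULT FPKM in the controls and 58.1% in the mutants. It measured 244, 276, 204 and 259 CPM in controls and 117, 85.0, 63.9 and 46.3 in mutants. All mutants lay under all controls, but they were spread over a wide range, with Mut1393 the highest and Mut1819 the lowest. Its change was -1.65 on the log2 scale (SE 0.22, adjusted p = 6.82e-05), a level 3.15-fold lower, and with the term for Y-linked counts it was -2.41 (adjusted p = 0.000180).

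Sult1b1, a neighbour of Sult1d1 that sulfates phenols and thyroid hormones, measured 5.80, 7.50, 4.70 and 5.01 CPM in controls and 1.41, 1.97, 2.44 and 1.70 in mutants. The groups did not overlap, and here Mut1393 was the lowest mutant. Mutant over control, the log2 fold change was -1.61 (SE 0.21, adjusted p = 6.78e-05), a level 3.06-fold lower. Sult1e1, the oestrogen sulfotransferase in the same stretch, had 2 counts in each group.

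Sult1a1, the main phenol sulfotransferase, measured 12.9, 10.2, 10.7 and 11.8 CPM in controls and 9.70, 8.33, 7.46 and 7.18 in mutants. The groups lay next to each other without overlap. On the log2 scale this was -0.48 (SE 0.13, adjusted p = 0.00875). Sult1c2 did not pass, at 45.1, 44.3, 34.3 and 35.0 CPM in controls and 46.3, 27.3, 25.0 and 34.5 in mutants, where Mut1393 was the highest of all 8 libraries (log2 fold change -0.25, SE 0.17, adjusted p = 0.249). Without Mut1393 it passed (-0.46, adjusted p = 0.0125). With the term for Y-linked counts it was -0.20 without passing (adjusted p = 0.647).

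The SULTs that rose were low. Sult2b1, which sulfates cholesterol and other hydroxysteroids, measured 1.0, 1.5, 1.27 and 0.967 CPM in controls and 2.29, 3.36, 2.78 and 2.63 in mutants. The groups did not overlap. The log2 fold change was 1.21 (SE 0.22, adjusted p = 0.000711). With the term for Y-linked counts it was 1.14 (adjusted p = 0.0282). For Mut1819 alone against the controls, a fit with 1 mutant library, it was 1.14.

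Sult4a1, a member best known from brain and without a well established substrate, had 8 counts in all control libraries and 69 in all mutant libraries. It measured 0.189, 0, 0.191 and 0.121 CPM in controls and 0.585, 0.752, 1.17 and 1.10 in mutants, so every mutant was above every control. The ratio after scaling to the TMM-scaled library totals was 7.30, with an exact 95% interval of 3.51 to 17.6 from counting error. The fitted log2 fold change was 2.80 (SE 0.51, adjusted p = 0.000816). It reached the filter in no control and in 4 mutants, so it entered the test through the group in which it was high.

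Sult5a1, at 7.71 ± 2.37 and 5.78 ± 1.09 CPM (log2 fold change -0.41, adjusted p = 0.135), and Sult6b1, at 0.922 ± 0.195 and 0.686 ± 0.246 (-0.42, adjusted p = 0.303), did not pass. Sult5a1 passed without Con1452 (-0.54, adjusted p = 0.0427). With the term for Y-linked counts neither passed, at -0.28 (adjusted p = 0.610) for Sult5a1 and -1.25 (adjusted p = 0.105) for Sult6b1. Sult2a3 had 1 count in controls and 0 in mutants.

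**Figure D4:**
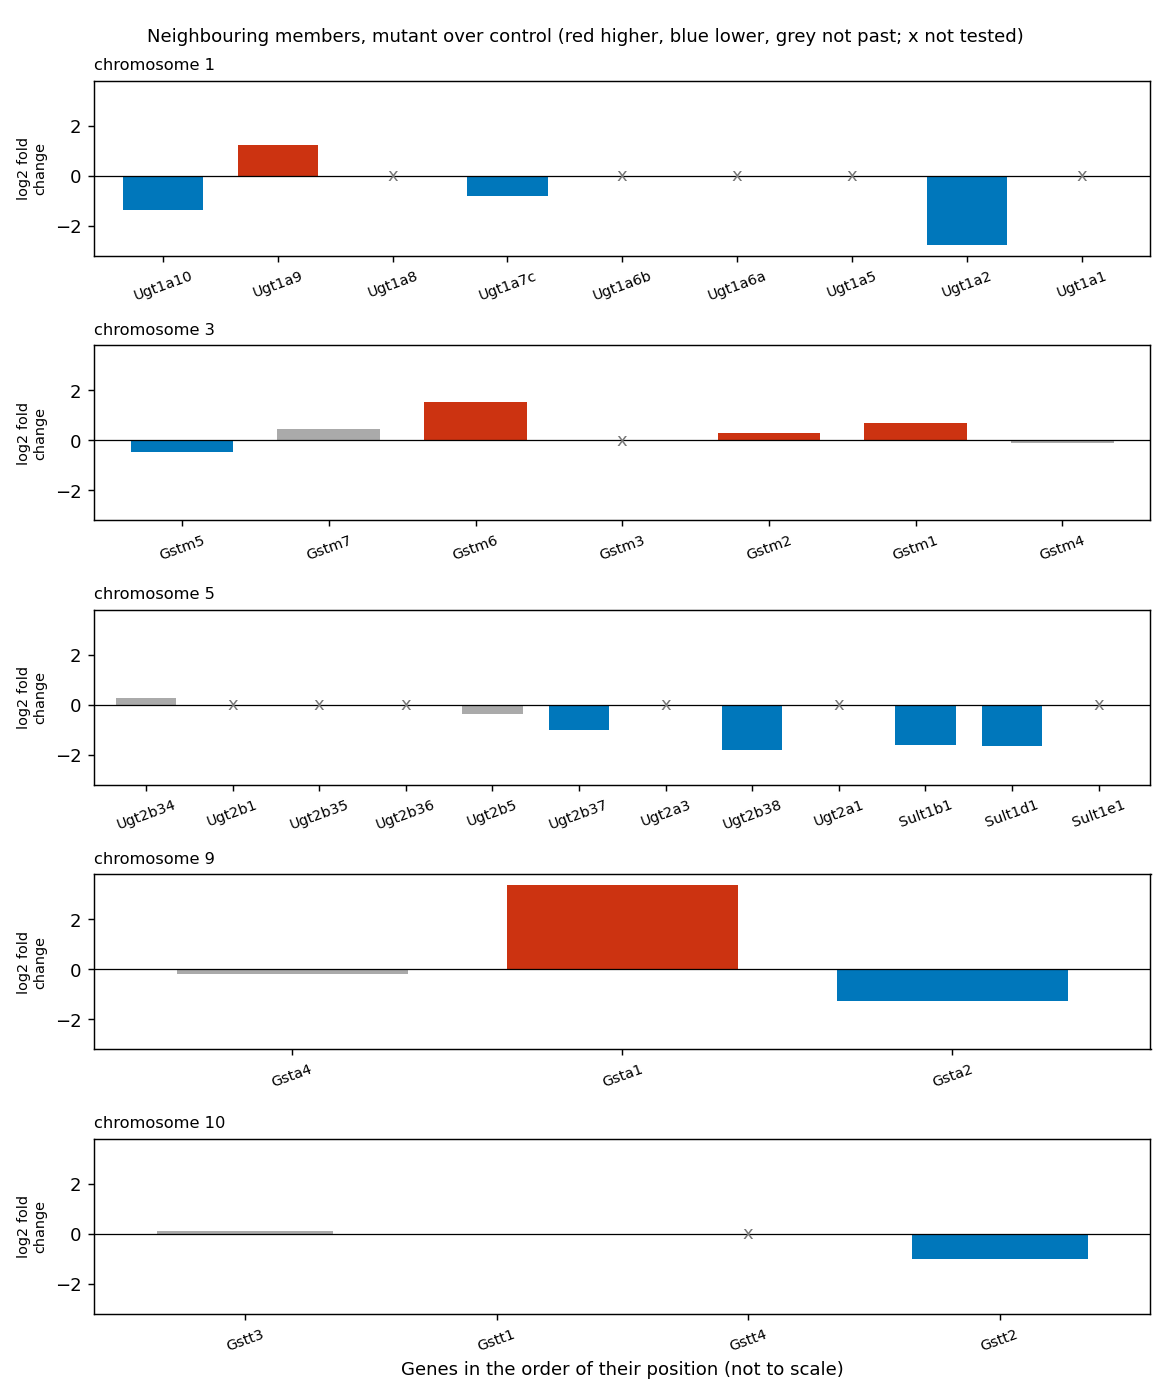
Log2 fold change, mutant over control, of neighbouring transferase genes in 5 clusters, drawn in the order of position but not to scale. Red bars were higher and blue bars lower at an adjusted p under 0.05, grey bars did not pass, and a cross marks a gene too low to test. Neighbours moved in opposite directions in the clusters on chromosomes 1, 3 and 9.

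Neighbouring genes did not move as blocks in every cluster. Genes called higher and lower stood together in the Ugt1a, Gstm and Gsta clusters and in the pair Gsto1 and Gsto2, whereas in the cluster on chromosome 5 each of the 4 called genes fell and both Ugt3a genes fell. The 7 Sult2a genes at chr7:13623967-14494230 were all too low to test.

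A promoter window from 250 bases before to 50 after the RefSeq start was found for 52 of the 60 members, and it was searched on both strands for 3 short motifs. GCGTG occurred in 11 members, 4 of 8 that rose, 5 of 15 that fell, 0 of 11 that did not pass and 2 of 18 that were not tested, against 32.4% of all 32851 windows. The antioxidant response element TGACNNNGC was found in Gsta3, Gstm5 and Gstm7, against 12.4% of all windows, and in Gstm5 it overlaps a GCGTG match. TGATGNAAN, which ATF4 and C/EBP factors bind, was found in Sult1e1, against 3.95% of all windows. A member counts once when any of its windows holds the letters, and a match or its absence in this window says nothing about binding.

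**Figure D5:**
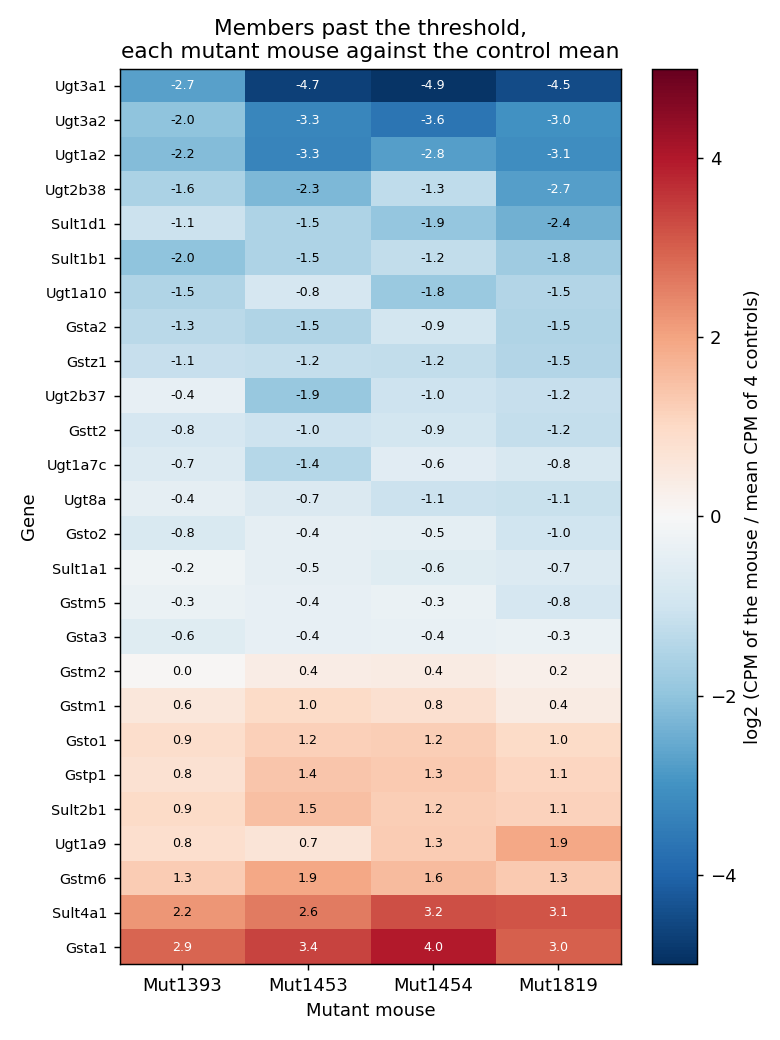
Log2 ratio of each mutant mouse's CPM to the mean CPM of the 4 controls for the 26 genes called, ordered from the largest fall to the largest rise, with the value printed in each cell. Mut1393 is paler than the other mutants for Ugt3a1 (-2.70), Ugt3a2 (-2.01) and Sult1d1 (-1.07).

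The mutants differed among themselves. Of the 17 genes that fell, Mut1393 was the highest mutant in 10, or 58.8%, against 48.8% of the 3416 genes lower in the mutants over the whole table. Mut1819 was the lowest in 8 of the 17, or 47.1%, against 37.4%. Of the 9 genes that rose, Mut1393 was the lowest mutant in 7, against 1766 of the 3532 genes higher in the mutants. Whether these shares differ from those of all genes was not tested. Mut1393 was also the highest mutant for 17 of 20 proximal tubule markers. It had the largest mitochondrial share of the mutants, 1.84% against 1.15 to 1.26%. The part of these measures in the member values was not tested.

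Genes that feed or follow conjugation were read from lists in the same test, without a test of the list. Beside these lists, 23.5% of all genes tested were higher and 22.7% lower, or 12.6% and 13.8% with the term for Y-linked counts. Of 8 genes listed under UDP-glucuronate supply 2 rose and 3 fell, with 1 higher without Con1391, Con1823, Mut1453 or Mut1454. The 2 that rose were Gusb (0.19 on the log2 scale), a lysosomal glucuronidase, and the carrier Slc35b1 (0.24). Neither makes UDP-glucuronate, and neither passed with the term for Y-linked counts. Miox, which breaks down inositol to glucuronate, fell by 4.27 on the log2 scale (SE 0.27, adjusted p = 2.13e-07), and it is also on the proximal tubule list. Slc35d1, a carrier of UDP-glucuronate into the endoplasmic reticulum, fell by 0.71 (adjusted p = 6.29e-05), and Ugdh, which makes UDP-glucuronate, measured 67.1 ± 1.72 and 72.1 ± 4.17 CPM without passing (adjusted p = 0.158).

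Of 11 genes tested for PAPS supply and sulfate handling 1 rose and 7 fell, and the median was -0.34 on the log2 scale. Papss1 and Papss2, which make PAPS, had log2 fold changes of -0.65 (SE 0.05, adjusted p = 1.31e-06) and -0.81 (SE 0.13, adjusted p = 0.000390). The sulfate transporters Slc26a1 and Slc13a1, of the basolateral and brush border membranes of the proximal tubule, had log2 fold changes of -2.42 and -2.75 (adjusted p = 3.82e-07 and 8.74e-06). Arsa, a lysosomal sulfatase, rose by 0.70 (adjusted p = 0.000107).

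Of 10 genes of glutathione synthesis and recycling 4 rose and 4 fell. The largest rises were of Chac1, which degrades glutathione, which measured 0.369 ± 0.200 CPM in controls and 27.0 ± 2.57 in mutants (6.16 on the log2 scale, SE 0.20, adjusted p = 2.61e-09), and of the cystine carrier Slc7a11 (3.83, SE 0.16, adjusted p = 1.22e-08). Gss, the glutathione synthetase, fell by 0.78 (adjusted p = 3.79e-06), Gclm, the modifier subunit of glutamate-cysteine ligase, fell by 0.85 (adjusted p = 6.99e-06), and its catalytic partner Gclc did not pass (log2 fold change -0.01, adjusted p = 0.950).

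The mercapturate pathway, which trims glutathione conjugates at the brush border, had 0 of 11 genes higher and 8 lower, and their median was -1.24 on the log2 scale. Anpep, an aminopeptidase, fell by 2.30 (adjusted p = 6.21e-08), Ggt1, the transferase that removes glutamate, fell by 1.21 (adjusted p = 9.19e-07), and the acylases Acy1 and Acy3 changed by -1.45 and -1.77 (adjusted p = 5.36e-07 and 9.89e-07). Membrane-bound GSTs and their relatives had 1 of 5 higher and 2 lower, the latter Ptges (-1.04) and Mgst3 (-0.71). Other conjugating enzymes, which attach acetyl, methyl or acyl groups, had 0 of 14 higher and 11 lower, with a median of -0.92, among them Acsm1, an acyl-CoA synthetase (-3.25, or -3.90 with the term for Y-linked counts), Hnmt, the histamine methyltransferase (-1.51), Keg1 (-0.90) and Bphl (-1.61), which is a hydrolase and not a conjugating enzyme.

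Of 10 pumps that export conjugates 3 rose and 4 fell. Abcc4, which exports organic anion conjugates, rose by 2.04 on the log2 scale, from 35.5 ± 1.35 to 146 ± 11.7 CPM (SE 0.07, adjusted p = 2.61e-09), and Abcb1b, a multidrug transporter, rose by 2.05 (adjusted p = 0.000187), or by 1.10 with the term for Y-linked counts (adjusted p = 0.0403). Abcg2, which exports urate and sulfate conjugates, fell by 1.5 (adjusted p = 3.87e-07) and Abcc6, a pump best known from liver and kidney, fell by 2.72 (adjusted p = 4.35e-06).

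Of 14 genes listed with the transcription factors known to act on these genes 1 rose and 8 fell. Keap1, which is on this list, acts on the factor NRF2 and is not itself a transcription factor. It did not pass (log2 fold change -0.12, adjusted p = 0.162). Hnf4a, a factor of the proximal tubule programme, fell by 1.30 on the log2 scale (adjusted p = 3.12e-06), Maf fell by 1.16 (adjusted p = 1.87e-06) and Rxra by 0.45 (adjusted p = 4.86e-05). Nfe2l2, which encodes NRF2, rose by 0.33 (adjusted p = 0.000553), and with the term for Y-linked counts it did not pass (adjusted p = 0.0516). Of 16 NRF2 target genes outside the transferases 10 rose and 3 fell, with a median of 0.50, including the redox enzymes Srxn1 (1.27) and Txnrd1 (1.33) and the NADPH source G6pdx (0.87), while Gclm, Osgin1 and Me1 fell. Slc7a11, G6pdx, Gclc and Gclm are on this list and on that of glutathione synthesis. With the term for Y-linked counts, the calls higher and lower were 0 and 2 for UDP-glucuronate supply, 1 and 5 for PAPS supply, 4 and 4 for glutathione synthesis, and 0 and 7 for the mercapturate pathway. They were 1 and 2 for membrane-bound GSTs, 0 and 10 for other conjugating enzymes, 3 and 4 for pumps, 0 and 8 for transcription factors, and 8 and 3 for NRF2 targets.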

How the data were processed

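Per the file headers, the authors deposited a raw read count and an FPKM for each gene in each mouse. The submitters' processing notes name Bowtie2, TopHat2, HTSeq, DESeq2 and build mm10. Tool versions, strandedness, annotation release and counting mode are not given in these sources, and a gene and its antisense partner may share reads. The authors' FPKM uses 1 length per gene, which for 33 of 51 members with counts equals the mean GENCODE transcript length within 1 base. The authors' mean normalized signal, log2 fold change, p-value and adjusted p-value per gene are in the deposited table and were not used in tests.

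The count test was edgeR's, version 4.0.16 under R 4.3.3 (filterByExpr, TMM, quasi-likelihood, Benjamini-Hochberg over 15028 genes, threshold 0.05, two-sided). CPM here is TMM-scaled, except that Tfam and the class and family sums are scaled to library totals without TMM. Genes were named with values in every library if called with a log2 fold change beyond 1 and no overlap, or if among the 3 highest control FPKM of their class, and up to 4 genes of smallest adjusted p per list. Gstm2, Gsto2, Ugdh, Gclc, Gclm, Slc35d1, Slc35b1, Papss2, Nfe2l2, Keap1, Abcb1b and other members given as means were chosen after their values were seen. The members and lists were chosen with earlier results of these data known. Alternatives were DESeq2 1.42.0, limma 3.58.1 (voom), other scalings, filters and thresholds, each mouse left out, and terms for mouse number range and Y-linked counts. Per length, the longest transcript was an alternative chosen after seeing the data.

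Positions and 100-base windows come from GENCODE M21, promoters from RefSeq. Promoters were aligned with Biopython 1.88. 1 planned motif is not reported here. Promoters were not matched for Sult2a1, Sult2a2, Sult2a7, Sult4a1, Ugt3a2, Ugt1a6b, Gsta4 and Gstt2. The pipeline was tested on simulated data. The labels do not say whether mice were littermates. The 12 pairs of libraries within groups differed by more than counting noise (reduced chi-square 4.63 to 42.3). Exact 95% intervals cover counting error alone. Other software was matplotlib 3.10.9, SciPy 1.17.1, pandas 2.3.3 and Python 3.11.15.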

Additional observations from a re-analysis of the deposited data

Results flagged for a closer look

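Each group of 4 mice was checked for a mouse whose gap to its nearest neighbour exceeded Dixon's 95% critical share of the group's range, in 76 groups of the 38 tested members. Chance flags about 1 in 20 groups, and 6 were flagged. Ugt3a1 was flagged in both groups, for Con1452 at 11.2 CPM, against 5.55 to 6.35 in the other controls, and for Mut1393 at 1.12 CPM, against 0.244 to 0.329 in the other mutants. Mut1453 was flagged for Gstm4 at 15.2 CPM, against 12.6 to 13.0, and for Gstp2 at 1.74 CPM, against 0.768 to 0.926. Con1391 was flagged for Gstm1 at 75.9 CPM, against 67.3 to 68.7, and Con1822 for Gstm2 at 66.7 CPM, against 62.3 to 62.8.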

How the results depend on the processing

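The class counts depended on the filter and on the term for Y-linked counts. With the latter 6 UGTs were lower, against 8 in the main fit. Lower GSTs were 4 against 6, and higher GSTs 5 against 6, while the SULT counts and the higher UGTs stayed the same. Without a filter 2 UGTs were higher, and with a filter at 10 CPM in 4 libraries 0 UGTs and 0 SULTs were higher and 5 UGTs and 1 SULT were lower, because fewer genes were tested. Higher UGTs numbered 1 to 2 with each mouse left out, 2 without Con1452 and 2 without Mut1819. With a change beyond 1 log2 unit 2 GSTs were lower. Over all genes the term for Y-linked counts left 1891 higher and 2076 lower, against 3532 and 3416, and the cause was not tested. Not called, the log2 fold change of Gstt1 ran from -0.118 to 0.0259 with each mouse left out (0.0144 without Con1452), and Gstt3, not called, was -0.28 with that term and -0.28 for Mut1819 alone. Over the 38 members and all other settings 593 values kept direction and side of the threshold, 19 lost a call, 14 gained one and 4 changed sign. Among the 17 members past 1 log2 unit 278 of 280 values kept both, and the exceptions were Ugt2b37 with the term for Y-linked counts and Sult2b1 for Mut1819 alone. The fit of Mut1819 alone has 1 mutant library, so its calls do not measure spread among mutants. No paired analysis was possible because the labels give the groups no shared replicate numbers. Read depth limits members under about 10 counts per library, and no library separates Cre or, apart from Mut1819, the Y-linked counts from the genotype. Protein identity was not run.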
